A study of Mus musculus with 58 samples.

Results

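Mmp9, Mmp12, Mmp13, Mmp14, Timp2, Adam8, Tgfbi and Fn1 are 8 mouse genes for enzymes that cut the extracellular matrix, for an inhibitor of these enzymes and for secreted matrix proteins. They were chosen by name, with earlier results of these data known. Counts of these genes, and of the genes in the lists below, beside shares of all genes are therefore description only. All 8 symbols were found among the 47643 genes counted in each of 34 microglia libraries. Each library is a bulk QuantSeq 3′ mRNA-Seq library, which counts sequence tags from the ends of transcripts. Wild-type primary microglia from newborn pups received full-length tau fibrils at 2 µg/ml for 24 h or vehicle (n = 4 each). Adult microglia were isolated from males of 10.98 to 11.18 months, either PS19 animals, transgenic for human tau bearing P301S, or nontransgenic (NTG) animals (n = 4 each). IkbkbCA primary microglia were Cx3cr1 CreERT2/+ and homozygous for a Cre-activated, constitutively active Ikbkb transgene in the Rosa locus, and IkbkbWT microglia carried that transgene without Cre (n = 5 each). Ikbkb-/- primary microglia were Cx3cr1 CreERT2/+ with both Ikbkb alleles floxed, and Ikbkb+/+ microglia had the same floxed alleles without Cre (n = 4 each). All 4 of these Ikbkb groups received 4-hydroxytamoxifen. The CreERT2 allele replaces a copy of Cx3cr1 and is present in every IkbkbCA and Ikbkb-/- library and in no control, so its effect cannot be told apart from that of the Ikbkb change. Nothing in the labels says that libraries of a group are separate cultures, so p-values measure the spread between libraries, which may in part be technical.

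Matrix metalloproteases are zinc enzymes that are made as inactive proforms, and many become active only after another protease removes the propeptide. Tissue inhibitors of metalloproteases bind the active enzymes. Microglia and other macrophages secrete several of these proteases and can change the matrix around them, and many of the genes are known to respond to inflammatory signals, among them NF-κB, the pathway in which Ikbkb encodes a kinase.

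In GRCm38, Mmp12 (chr9:7344381-7369499) and Mmp13 (chr9:7272514-7283331) lie on the plus strand of the same cluster of matrix metalloprotease genes. Mmp9 is at chr2:164940780-164955850 and Mmp14 at chr14:54431612-54445364, both on the plus strand. Timp2 is at chr11:118301069-118355740 and Adam8 at chr7:139978932-139992562, both on the minus strand. Tgfbi is at chr13:56609523-56639562 on the plus strand and Fn1 at chr1:71585520-71653200 on the minus strand. Annotated neighbours overlap 4 members: Mmp1b on the other strand of Mmp12, Cep295nl on the same strand as Timp2, Gm16201 on the other strand and Mir7062 on the same strand of Adam8, and Apol7d on the other strand of Fn1. The library kit keeps the strand, but the strand setting of the counting is not given in the sources used here. Reads that match several genes are counted apart as ambiguous, so tags shared with a neighbour could be missing from the counts of these 4.

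RefSeq promoter windows (GRCm38.p6, 250 bases before to 50 bases after a start) were found for 6 of the 8 members, and not for Mmp9 and Fn1. They were searched on both strands for the AP-1 motif TGANTCA and for the κB consensus, neither of which overlapped the other. Of all 32851 windows of the same length, 7.81% held the first and 8.46% the second. The AP-1 letters were found in the windows of the neighbouring genes Mmp13 and Mmp12, at 35 to 29 bases before the start of Mmp13 and 44 to 38 bases before the downstream start of Mmp12, and the κB consensus only in the upstream window of Mmp12, at 129 to 120 bases before the start. The 130 bases before these starts, and before those of Mmp14 and Tgfbi, whose fold changes were among the largest of the members, are shown 5′ to 3′ with these matches in capitals:
Mmp13, chr9:7272384-7272513, plus strand: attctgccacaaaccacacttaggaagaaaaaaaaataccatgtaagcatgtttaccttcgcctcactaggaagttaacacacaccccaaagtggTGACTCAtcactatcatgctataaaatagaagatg
Mmp12, downstream start, chr9:7347244-7347373, plus strand: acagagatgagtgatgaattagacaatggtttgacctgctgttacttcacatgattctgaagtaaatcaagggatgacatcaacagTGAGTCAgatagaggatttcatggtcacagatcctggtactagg
Mmp12, upstream start, chr9:7344267-7344396, plus strand: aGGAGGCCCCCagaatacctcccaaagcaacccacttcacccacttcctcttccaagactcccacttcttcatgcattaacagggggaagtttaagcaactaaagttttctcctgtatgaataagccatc
Mmp14, chr14:54431468-54431597, plus strand: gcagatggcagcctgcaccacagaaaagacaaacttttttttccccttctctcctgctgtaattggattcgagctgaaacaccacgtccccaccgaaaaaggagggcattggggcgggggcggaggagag
Tgfbi, chr13:56609456-56609585, plus strand: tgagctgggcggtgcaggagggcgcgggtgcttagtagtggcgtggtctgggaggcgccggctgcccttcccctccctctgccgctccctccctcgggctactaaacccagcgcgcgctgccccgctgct
Neither set of letters occurred in the windows of Mmp14, Timp2, Adam8 or Tgfbi. A match describes the letters only.

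Levels are given as CPM, a gene's count scaled to a library total of 1000000 counts after TMM scaling among the libraries of the same comparison, so levels set side by side across comparisons were scaled separately. Total counts were 1672052 to 8349128 per library. None of the 8 microglial markers was at 0 throughout a group, but in the tau and vehicle cultures Siglech was at 0 to 1.63 CPM and P2ry12 at 4.06 to 9.92 CPM, against 964 to 2452 CPM and 1907 to 4942 CPM in adult microglia. Ikbkb itself was lower in Ikbkb-/- (18.7 to 25.4 CPM) than in Ikbkb+/+ (45.9 to 55.0 CPM). It was at 45.0 to 59.8 CPM in IkbkbCA and 41.2 to 58.6 CPM in IkbkbWT, a check of nothing where transcript-end tags may miss the transgene. Several libraries stood apart. IkbkbCA replicate 3 had far higher Mmp9 than its group, and the 5 oligodendrocyte markers summed to 1682 CPM in it (353 to 650 CPM in the other IkbkbCA libraries) and to 4757 CPM in IkbkbWT replicate 3 (286 to 673 CPM in the others). Their part in the results of replicate 3 was not tested. IkbkbCA and IkbkbWT libraries shared deviations from their group means in 3 sets (replicates 1 and 2, replicate 3, and replicates 4 and 5 of both groups). Correlations of the deviations over 7983 genes were 0.34 to 0.60 within sets and -0.53 to 0.024 between sets. The sets were picked from these same data, so the correlations describe them and do not test them. IkbkbWT replicates 1 to 3 had 1.73 to 2.76 CPM of Xist and 145 to 173 CPM of Ddx3y, replicates 4 and 5 had 473 to 494 CPM and 1.16 to 2.08 CPM, and the IkbkbCA libraries had 149 to 277 CPM and 48.9 to 85.8 CPM, so sex-linked genes differed between the groups and between the sets. PS19 replicate 1 had 161 CPM of Xist beside 112 CPM of Ddx3y although labelled male, and the other 7 adult libraries had 1.67 to 29.1 CPM of Xist. In Ikbkb+/+ replicate 1 the 7 granulocyte markers summed to 425 CPM, and replicates 2 to 4 of that group had sums of 97.3, 39.7 and 8.20 CPM. From replicate 1 to 4 the astrocyte markers summed to 210, 148, 89.4 and 47.2 CPM. Endothelial and pericyte markers summed to 21.3, 18.3, 11.6 and 2.64 CPM there. The ranges in Ikbkb-/- were 32.2 to 61.2 and 1.47 to 2.26 CPM. Siglech was at 9.79 to 316 CPM in Ikbkb+/+ and 8.11 to 15.8 CPM in Ikbkb-/-. Fits without Ikbkb+/+ replicate 1 keep replicates 2 and 3. The part of these markers in the results was not tested. In bulk libraries, fewer cells of a type and less RNA per cell cannot be told apart.

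Tau fibrils moved the members in both directions. Mmp9, Mmp14, Adam8 and Tgfbi rose, Mmp12 and Fn1 fell, and Mmp13 and Timp2 did not pass a false discovery rate (FDR) of 0.05. Thus 4 of 8 were higher, where 14.5% of the 10408 genes tested were, and 2 were lower, where 15.4% of all genes were. The 4 treated and 4 vehicle libraries did not overlap for 6 members, against 28.3% of all genes tested. The median log2 fold change was 0.70 over the members and -0.011 over all genes. Scaling to total counts moved the median of all genes by -0.15 and the share of calls that were higher from 48.5% to 31.9%.

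In adult PS19 microglia, none of the 7 members tested was called by the edgeR quasi-likelihood test, where 0.0707% of 11323 genes were higher and 0% lower. Mmp12 and Timp2 had an unadjusted p under 0.05 and the PS19 libraries lay above all NTG libraries for both, against 5.77% of all genes without overlap in either direction. DESeq2 called these 2 members and limma-voom 0. Unadjusted p under 0.05 were found for 977 of all genes. Mmp13 had 0 to 12 counts per library and was not tested.

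In IkbkbCA microglia, Mmp9, Mmp14, Adam8 and Tgfbi were called higher and no member lower, where 7.31% of 11697 genes were higher and 7.16% lower. The groups did not overlap for Mmp14 and Tgfbi, against 12.7% of all genes. All 8 log2 fold changes were positive, with a median of 1.05 against -0.047 over all genes, but without replicate 3 that of Mmp12 was negative and Mmp9 was not called. Of all calls 50.5% were higher, and 37.6% with scaling to total counts. In Ikbkb-/- microglia, Mmp9, Mmp12 and Fn1 fell and Adam8 rose, where 6.96% of 11242 genes were lower and 7.64% higher. The groups did not overlap for Mmp9, Adam8 and Fn1, against 18.1% of all genes, and the median log2 fold change was -0.32 against 0.00017 over all genes.

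**Figure D1:**
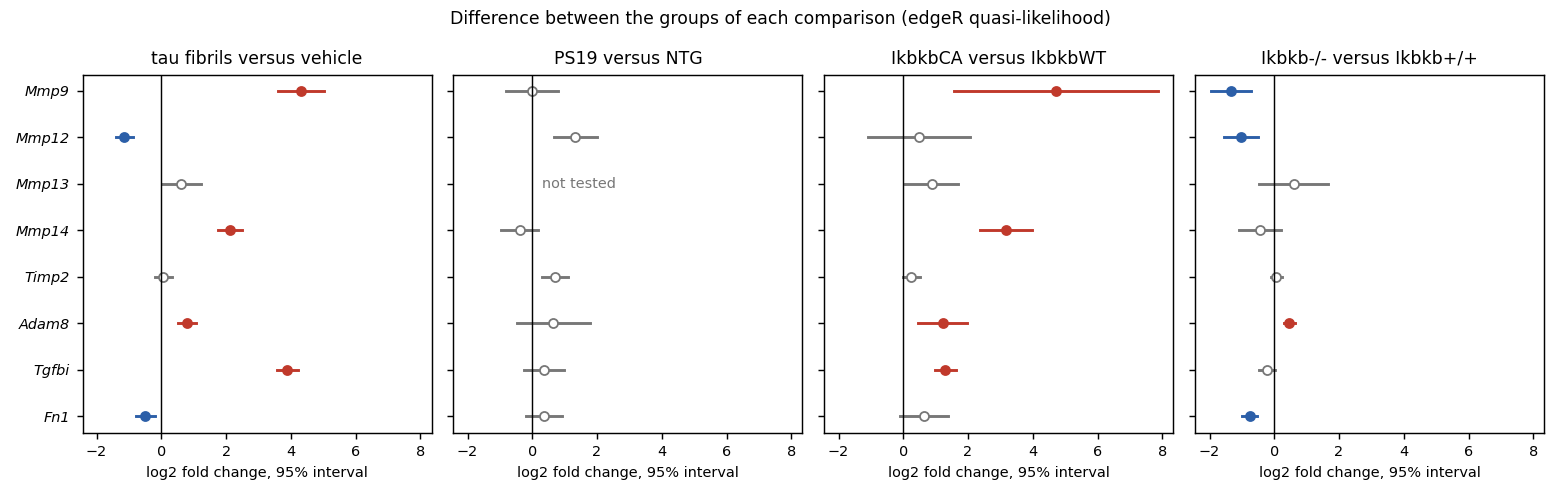
Log2 fold change of each gene (x axis) in the 4 comparisons, with the 95% interval of the edgeR quasi-likelihood fit as a line. Filled red and blue points were called higher and lower at an FDR of 0.05 and open grey points were not called. The interval of Mmp9 in IkbkbCA runs from 1.58 to 7.85, the widest shown.

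Mmp14 encodes a membrane-anchored matrix metalloprotease that cuts collagen at the cell surface and activates the proform of Mmp2. Its level was 143, 142, 149 and 198 CPM in the tau libraries and 39.6, 30.3, 27.0 and 51.3 CPM in the vehicle libraries. Every tau library was above every vehicle library, with a log2 fold change of 2.12 ± 0.18 (SE) and an adjusted p of 2.21e-10. In IkbkbCA it was at 50.1, 51.6, 132, 57.5 and 50.6 CPM and in IkbkbWT at 7.32, 7.93, 13.47, 4.14 and 5.53 CPM. Again no libraries overlapped, and the log2 fold change was 3.18 ± 0.36, with an adjusted p of 0.000136. Replicate 3 was the highest library of each of these groups. Without IkbkbCA replicate 3 the log2 fold change was 2.81 ± 0.26 and the adjusted p 4.19e-05. The ratio of IkbkbCA to IkbkbWT was 6.67 in replicates 1 and 2, 9.79 in replicate 3 and 11.2 in replicates 4 and 5, so the rise was present in each set. Loss of Ikbkb left Mmp14 at 4.004 to 6.21 CPM, within the 3.97 to 13.1 CPM of Ikbkb+/+ (log2 -0.44, 95% interval -1.09 to 0.22, adjusted p = 0.406). In adult microglia it was at 19.0 to 39.6 CPM in PS19 and 33.3 to 46.2 CPM in NTG (log2 -0.40, interval -0.96 to 0.17, adjusted p = 0.698).

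Mmp9 encodes gelatinase B, a secreted protease of denatured collagen and basement membranes. The 4 tau libraries held 43, 57, 62 and 48 counts, or 25.8, 25.7, 24.6 and 25.6 CPM. The vehicle libraries held 1, 6, 3 and 3 counts, or 0.58, 1.22, 1.42 and 1.64 CPM. All tau libraries were higher, and the ratio of the pooled counts, 210 against 13, was 20.7, with a 95% exact counting interval of 11.8 to 39.5 that covers counting error only. The fitted log2 fold change was 4.31 ± 0.35 (adjusted p = 1.31e-10).

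The IkbkbCA libraries held 14.3, 14.8, 1352, 20.1 and 23.03 CPM of Mmp9, and the IkbkbWT libraries 6.50, 11.4, 24.6, 6.78 and 6.11 CPM. Replicate 3 of IkbkbCA, with 7354 counts, was 58.7 times the next IkbkbCA library, a ratio that ranked first among the 11697 genes tested, before Marco (30.2), Saa3 (13.9) and Hp (12.4), which were named after their values were seen. IkbkbWT replicate 3 was also the highest of its group and lay above the other 4 IkbkbCA libraries. The log2 fold change was 4.72 ± 1.44 with an adjusted p of 0.0475, and they were 0.74 ± 0.40 and 0.280 without IkbkbCA replicate 3. Leaving out any of the 5 IkbkbWT libraries also ended the call, with adjusted p of 0.0663 to 0.106. With the 3 sets as a covariate, a fit chosen after seeing the data, the log2 fold change was 2.55 ± 0.67 and the adjusted p 0.0131. The sets' ratios of IkbkbCA to IkbkbWT were 1.62 in replicates 1 and 2, 54.9 in replicate 3 and 3.35 in replicates 4 and 5. The 7 granulocyte markers summed to 85.5 CPM in IkbkbCA replicate 3 and to 16.99 to 33.4 CPM in the other IkbkbCA libraries. Most of this sum was S100a8 (up to 75.9 CPM). S100a9 was at 1.96 to 4.05 CPM in IkbkbCA and 1.95 to 3.805 CPM in IkbkbWT, and Ly6g at 0 to 0.18 CPM in IkbkbCA. Camp was at 0 to 4.41 CPM in IkbkbCA and 0 to 0.65 CPM in IkbkbWT. Ngp, Ltf and Retnlg reached 1.53, 0.58 and 0.75 CPM in IkbkbCA. The 4 monocyte markers summed to 4.96 CPM in IkbkbCA replicate 3 and to 1.12 to 3.40 CPM in the other IkbkbCA libraries, with Ly6c2 at 0 to 3.86 CPM. The part of these markers in the Mmp9 values was not tested.

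In Ikbkb-/- the libraries held 2.82, 2.32, 2.58 and 1.84 CPM of Mmp9 and in Ikbkb+/+ 8.20, 4.42, 4.79 and 6.48 CPM. All 4 Ikbkb-/- libraries were lower, with a log2 fold change of -1.33 ± 0.29 and an adjusted p of 0.00454. The counts were 5 to 11 and 21 to 49 per library. Granulocyte markers summed to 8.20 to 13.3 CPM in Ikbkb-/-, with Ly6g at 0, and to 8.20 to 425 CPM in Ikbkb+/+. Their part in the Mmp9 difference was not tested. Without Ikbkb+/+ replicate 1, the library with the sum of 425 CPM, the log2 fold change was -1.20 ± 0.30 (adjusted p = 0.0129). Adult microglia had 9.56, 11.7, 29.5 and 13.4 CPM in PS19 and 21.6, 18.1, 14.6 and 10.6 CPM in NTG. The groups overlapped (log2 -0.0043, interval -0.80 to 0.79, adjusted p = 0.999). PS19 replicates 1 and 3 had the lowest and the highest Mmp9 and also the lowest and the highest granulocyte marker sums of the 8 adult libraries, 398 and 2429 CPM.

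**Figure D2:**
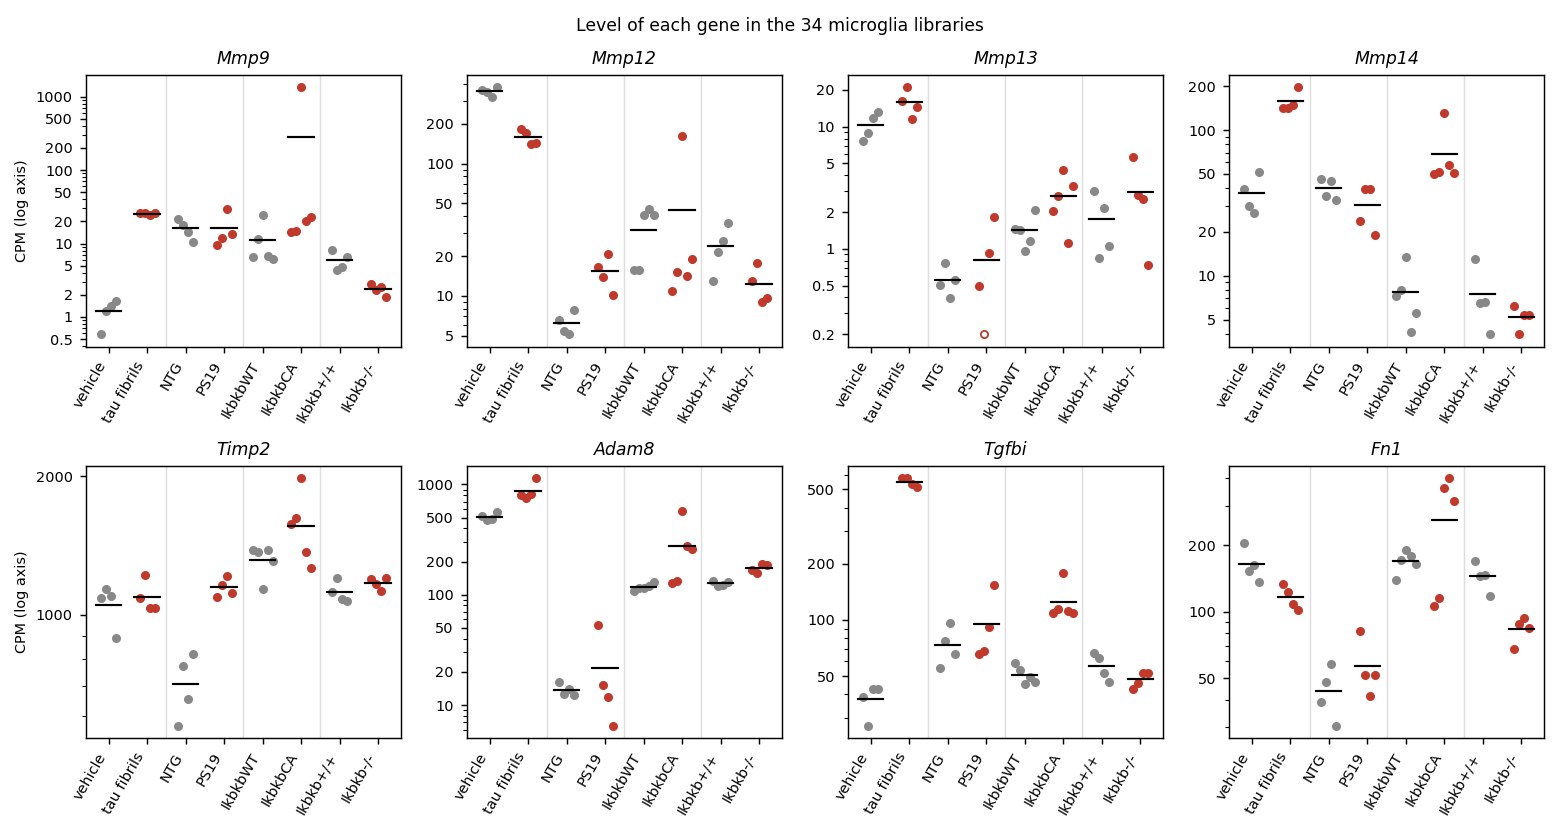
CPM (log axis) of each gene in the 34 libraries by group, with control groups in grey, the other groups in red and a line at the group mean. An open point is the library with 0 counts of Mmp13. The tau libraries lie above the vehicle libraries for Mmp9, Mmp14, Adam8 and Tgfbi and below them for Mmp12 and Fn1.

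Mmp12 encodes macrophage elastase. It was at 182, 170, 142 and 144 CPM in the tau libraries and at 362, 351, 320 and 381 CPM in the vehicle libraries. The treated libraries were all lower, with a log2 fold change of -1.15 ± 0.13 and an adjusted p of 6.94e-08. Ikbkb-/- libraries had 12.99, 17.7, 8.91 and 9.59 CPM and Ikbkb+/+ libraries 13.1, 21.5, 25.8 and 35.6 CPM. The groups overlapped through Ikbkb+/+ replicate 1, and the log2 fold change was -1.03 ± 0.25, with an adjusted p of 0.0096. Without that library it was -1.20 ± 0.22 (adjusted p = 0.000941). In IkbkbCA it was at 10.9, 15.2, 162, 14.1 and 19.0 CPM and in IkbkbWT at 15.6, 15.7, 40.6, 45.3 and 40.8 CPM. Here replicate 3 set the sign: the log2 fold change was 0.48 ± 0.73 (adjusted p = 0.747) with it and -1.08 ± 0.34 (adjusted p = 0.061) without it. The excess of replicate 3 over the next IkbkbCA library, 8.53 times, ranked 7 among all genes tested.

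PS19 libraries had 16.5, 13.8, 20.7 and 10.2 CPM of Mmp12 and NTG libraries 6.52, 5.40, 5.12 and 7.78 CPM. All 4 PS19 libraries were above all NTG libraries. The log2 fold change was 1.33 ± 0.31 with an unadjusted p of 0.000911 and an adjusted p of 0.193 in the edgeR quasi-likelihood test, so it was not called. DESeq2 called it (log2 1.35, adjusted p = 0.0253), as did the edgeR fit without a filter (adjusted p = 0.0392), and over all alternatives the adjusted p ran from 0.0253 to 0.98. Without PS19 replicate 1 the log2 fold change was 1.29 ± 0.34 (adjusted p = 0.317).

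Mmp13 encodes collagenase-3, which cuts fibrillar collagens. The tau libraries had 16.2, 21.2, 11.5 and 14.4 CPM and the vehicle libraries 7.58, 8.94, 11.8 and 13.1 CPM. These overlapped, and the log2 fold change of 0.62 ± 0.29 did not pass (adjusted p = 0.108). IkbkbCA had 2.04, 2.68, 4.41, 1.12 and 3.25 CPM and IkbkbWT 0.96 to 2.08 CPM (log2 0.87 ± 0.38, adjusted p = 0.156). Ikbkb-/- had 0.74 to 5.65 CPM and Ikbkb+/+ 0.84 to 2.98 CPM (log2 0.61 ± 0.50, adjusted p = 0.487). PS19 libraries held 3, 0, 7 and 12 counts and NTG libraries 1, 2, 2 and 1, a pooled ratio of 1.75 with a counting interval of 0.69 to 5.27. The library with 0 counts allows a level of up to 0.798 CPM, the value of 3 counts in it. A difference in adult microglia was not detectable at this depth.

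Timp2 encodes an inhibitor that binds most matrix metalloproteases and also takes part in the activation of Mmp2 by Mmp14 at the cell surface. Among the members its group means spanned the narrowest range, 2.22-fold from the highest to the lowest. It was at 1031 to 1220 CPM in tau and 888 to 1135 CPM in vehicle libraries (log2 0.057, interval -0.20 to 0.31, adjusted p = 0.782). Ikbkb-/- was at 1126 to 1203 CPM and Ikbkb+/+ at 1072 to 1203 CPM (log2 0.069, interval -0.089 to 0.23, adjusted p = 0.615). IkbkbCA was at 1264 to 1981 CPM, highest in replicate 3, and IkbkbWT at 1138 to 1384 CPM (log2 0.25, interval -0.013 to 0.51, adjusted p = 0.205). The lowest levels were in adult NTG microglia, with 573, 773, 656 and 820 CPM, and PS19 microglia had 1093, 1159, 1216 and 1115 CPM. No libraries of these groups overlapped. The log2 fold change was 0.70 ± 0.18, with an unadjusted p of 0.00187 but an adjusted p of 0.258 by edgeR, and an adjusted p of 0.00527 by DESeq2. Without PS19 replicate 1 it was 0.72 ± 0.19 (edgeR adjusted p = 0.327).

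Adam8 encodes a membrane metalloprotease-disintegrin found on leukocytes. The tau libraries had 805, 752, 815 and 1140 CPM and the vehicle libraries 521, 477, 488 and 558 CPM. All tau libraries were higher (log2 0.78 ± 0.14, adjusted p = 6.26e-05). In Ikbkb-/- it was at 166, 157, 191 and 186 CPM and in Ikbkb+/+ at 133, 120, 124 and 131 CPM. Here loss of Ikbkb went with more Adam8, again without overlap (log2 0.46 ± 0.084, adjusted p = 0.00083, or 0.48 ± 0.092 and 0.00147 without Ikbkb+/+ replicate 1). IkbkbCA libraries had 127, 135, 574, 274 and 261 CPM and IkbkbWT libraries 108, 114, 116, 120 and 130 CPM. The ratio of IkbkbCA to IkbkbWT was 2.15 in replicates 4 and 5, 4.94 in replicate 3 and 1.18 in replicates 1 and 2, and IkbkbCA replicate 1 was within the IkbkbWT range. The log2 fold change was 1.22 ± 0.35 (adjusted p = 0.0353) with replicate 3 and 0.79 ± 0.22 (adjusted p = 0.0362) without it. The call was lost without any of the 5 IkbkbWT libraries (adjusted p 0.0637 to 0.0811), without IkbkbCA replicate 4 (0.0665) and without replicate 5 (0.0602). With the 3 sets as a covariate the adjusted p was 0.00544. Adult libraries had much less, 52.7, 15.2, 11.8 and 6.53 CPM in PS19 and 12.2 to 16.1 CPM in NTG. The PS19 mean rested on replicate 1, and the log2 fold change of 0.65 ± 0.52 (adjusted p = 0.766) was -0.31 ± 0.32 (adjusted p = 0.822) without it.

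**Figure D3:**
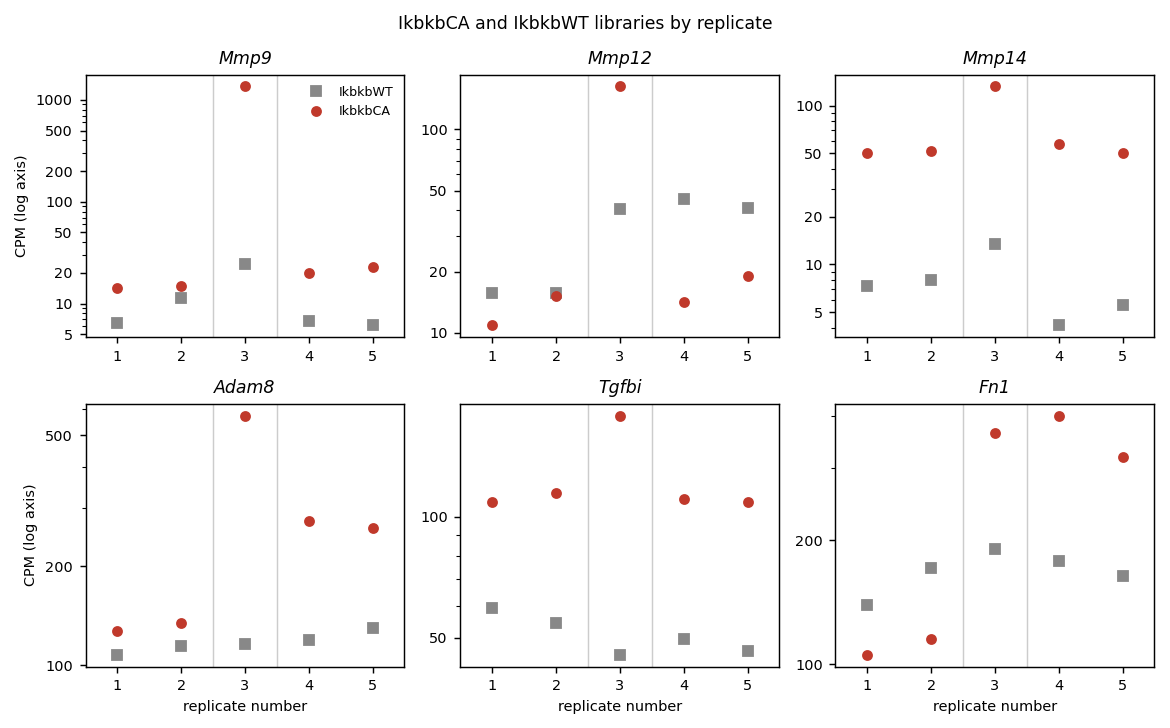
CPM (log axis) of 6 genes in IkbkbCA (red circles) and IkbkbWT (grey squares) libraries by replicate number, with grey lines between the 3 sets of libraries that deviated together. Mmp14 and Tgfbi are higher in IkbkbCA at each number, Mmp9 reaches 1352 CPM in IkbkbCA replicate 3, and Fn1 is lower than in IkbkbWT at numbers 1 and 2 and higher at the others. Replicate numbers follow the order of deposit and do not pair libraries.

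Tgfbi encodes a secreted matrix protein, named for its induction by TGF-β, that binds collagens and integrins. It was at 573, 574, 533 and 512 CPM in tau libraries and at 38.5, 27.2, 42.6 and 42.5 CPM in vehicle libraries. The groups were far apart, with a log2 fold change of 3.89 ± 0.16 and an adjusted p of 5.27e-17. IkbkbCA libraries had 109, 115, 179, 111 and 109 CPM and IkbkbWT libraries 59.2, 54.3, 45.4, 49.6 and 46.5 CPM. These did not overlap, with a log2 fold change of 1.29 ± 0.15 and an adjusted p of 0.000141. Without IkbkbCA replicate 3, which was again the highest, the values were 1.14 ± 0.097 and 2.43e-05. Ikbkb-/- libraries had 42.9 to 52.0 CPM and Ikbkb+/+ libraries 46.7 to 66.4 CPM (log2 -0.21, interval -0.46 to 0.038, adjusted p = 0.271). In adult microglia PS19 had 65.6, 68.1, 91.6 and 155 CPM and NTG 55.2 to 96.4 CPM (log2 0.36, interval -0.25 to 0.97, adjusted p = 0.762).

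Fn1 encodes fibronectin, a large adhesive glycoprotein of the matrix. It fell with tau fibrils, from 205, 153, 163 and 136 CPM in vehicle libraries to 134, 123, 109 and 101 CPM (log2 -0.49 ± 0.14, adjusted p = 0.00972). The lowest vehicle and the highest tau library were 136 and 134 CPM, and without vehicle replicate 1 the call was lost (log2 -0.37, adjusted p = 0.0568). Ikbkb-/- libraries had 67.8, 88.1, 93.7 and 84.6 CPM and Ikbkb+/+ libraries 170, 145, 146 and 118 CPM. All 4 were lower, with a log2 fold change of -0.76 ± 0.11 and an adjusted p of 9.62e-05, or -0.69 ± 0.11 and 0.000257 without Ikbkb+/+ replicate 1. IkbkbCA libraries had 105, 115, 363, 401 and 317 CPM and IkbkbWT libraries 139, 171, 190, 178 and 164 CPM. The sets went in opposite directions: IkbkbCA was 0.7103 times IkbkbWT in replicates 1 and 2, 1.91 times in replicate 3 and 2.10 times in replicates 4 and 5. Over all libraries the log2 fold change was 0.63 ± 0.34 (adjusted p = 0.268), and 0.50 ± 0.35 (adjusted p = 0.418) without IkbkbCA replicate 3. PS19 libraries had 41.6 to 81.6 CPM and NTG libraries 30.6 to 58.1 CPM (log2 0.35, interval -0.20 to 0.90, adjusted p = 0.727). The 6 fibroblast markers, of cells rich in fibronectin, summed to 54.4 to 82.2 CPM in Ikbkb-/- and 52.2 to 62.3 CPM in Ikbkb+/+, with Lum at 0 in both, and to 41.0 to 59.3 CPM in tau and 51.8 to 93.3 CPM in vehicle libraries. Pdgfra, which oligodendrocyte progenitors also express, made up most of these sums in Ikbkb-/- and Ikbkb+/+ (means of 65.1 and 53.6 CPM), where Col1a1, Col1a2, Col3a1 and Dcn had means of at most 0.56 CPM. The markers' part in the Fn1 values was not tested in either comparison.

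In Ikbkb-/- the sex-linked genes also differed from the controls: Xist was at 5.69 to 10.7 CPM and Ddx3y at 156 to 178 CPM, against 248 to 399 CPM and 34.9 to 70.8 CPM in Ikbkb+/+. The 5 markers of border-associated macrophages, which include Mrc1, summed to 417 to 723 CPM in Ikbkb-/- and 1475 to 1684 CPM in Ikbkb+/+, and to 477 to 1012 CPM in IkbkbCA and 1328 to 1735 CPM in IkbkbWT. Their part in the members' differences was not tested. In a fit of all 18 Ikbkb libraries, which share an estimate of the spread, the Ikbkb-/- log2 fold changes were -1.33 for Mmp9, -1.01 for Mmp12, 0.46 for Adam8 and -0.78 for Fn1, and with log2 CPM of Ddx3y as a covariate, added after seeing the data, -1.48, -0.66, 0.51 and -0.79. No member was called for Ikbkb-/- in either of these fits (edgeR adjusted p of 0.176 to 0.82 over the members). The IkbkbCA libraries also enter the spread in them. These ran from 14.3 to 1352 CPM for Mmp9, 10.9 to 162 CPM for Mmp12, 127 to 574 CPM for Adam8 and 105 to 401 CPM for Fn1.

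Across the 8 groups, the mean level of Mmp14, Mmp13, Adam8 and Tgfbi was highest in tau-treated microglia, that of Mmp12 in vehicle-treated microglia and that of Mmp9, Timp2 and Fn1 in IkbkbCA. For Mmp9 this first place came from replicate 3, since the other IkbkbCA libraries were all below the tau libraries. Adult NTG microglia had the lowest mean of Mmp12, Mmp13, Timp2, Adam8 and Fn1, vehicle microglia that of Mmp9 and Tgfbi, and Ikbkb-/- that of Mmp14. Mmp12 ran from 354 CPM in vehicle to 6.20 CPM in NTG (57.0-fold) and Adam8 from 878 CPM in tau to 13.7 CPM in NTG (63.9-fold). Tau microglia overlapped no other group for Mmp14, Adam8 and Tgfbi, and vehicle microglia none for Mmp12. For Mmp14 IkbkbCA came next, above NTG without overlap, although its lowest library (50.1 CPM) was below the highest vehicle library (51.3 CPM). Of the 7 steps from a group to the next lower one, the libraries overlapped in 6 for Timp2, Mmp13 and Fn1, in 5 for Mmp12 and Tgfbi, and in 4 for Mmp9, Mmp14 and Adam8. For each member the group with the highest mean was the same with TMM scaling over all 34 libraries. Plated tau and vehicle cells, floating Ikbkb cells and sorted adult cells were prepared differently, and preparation and group cannot be told apart in these levels.

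The effects of different changes were compared in fits with a term for their difference. In each fit the 4 groups shared an estimate of the spread, cultured and adult libraries alike where tau was set against PS19. Between IkbkbCA and Ikbkb-/-, each against its own control, Mmp14 and Tgfbi differed, 2 of 8 members, where 3.12% of 12352 genes did. Of these genes 71.2% had the higher effect in IkbkbCA, and 56.6% with scaling to total counts. The difference on the log2 scale was 3.64 ± 0.57 for Mmp14 (adjusted p = 0.000776) and 1.53 ± 0.21 for Tgfbi (adjusted p = 0.000268). Those of Mmp9 (6.08 ± 2.25, adjusted p = 0.182) and Fn1 (1.42 ± 0.42, adjusted p = 0.0793) did not pass. Between tau fibrils and IkbkbCA only Tgfbi differed, 1 of 8 where 9.42% of 12841 genes did, with the larger rise after tau (difference 2.52 ± 0.22, adjusted p = 2.8e-07). Mmp14 had a difference of -1.14 ± 0.44 (adjusted p = 0.115) and Mmp9 one of -0.46 with an interval of -6.70 to 5.78. Without IkbkbCA replicate 3 the Mmp9 difference was 3.59 ± 0.61, larger after tau, with an adjusted p of 0.000647. Between tau fibrils and PS19, 5 of 8 members differed, where 8.07% of 11852 genes did. Of these genes 54.8% had the higher effect with tau, and 44.1% with scaling to total counts. The tau effect was higher for Mmp9 (4.24 ± 0.55, adjusted p = 1.61e-05), Mmp14 (2.42 ± 0.34, adjusted p = 5.41e-05) and Tgfbi (3.43 ± 0.34, adjusted p = 4.52e-07) and lower for Mmp12 (-2.59 ± 0.29, adjusted p = 2.37e-06) and Timp2 (-0.73 ± 0.21, adjusted p = 0.0323). The call of Timp2 was lost without a filter (adjusted p = 0.191). Without PS19 replicate 1 Timp2 was not called (adjusted p = 0.0501) and Adam8 was (1.10 ± 0.31, adjusted p = 0.0289). The first 2 differences share the IkbkbCA and IkbkbWT libraries, and the last 2 the tau and vehicle libraries.

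Other genes of the same processes were followed in 7 lists with 132 genes, of which 66 to 73 were tested in each comparison. With tau fibrils 14 rose and 30 fell of 73, where 14.5% of all genes were higher and 15.4% lower. Of 4 other matrix metalloproteases tested, Mmp15 (log2 -1.36 ± 0.20) and Mmp16 (-1.02 ± 0.31), both membrane-anchored, fell, and of 4 inhibitors Timp4 (-1.13), Timp3 (-0.97 ± 0.15, from 184 to 93.9 CPM) and A2m (-0.87) fell. Among 11 ADAM and ADAMTS proteases 2 rose and 4 fell, and Adam17, the sheddase of TNF, rose from 189 to 443 CPM (1.22 ± 0.14). Of 9 genes of the plasminogen system 4 fell, among them the protease inhibitor gene Serpine2 (-0.90 ± 0.13), and 1, Rhbdf2, named after its value was seen, rose. Among 20 other matrix genes 12 fell, with the fibrillar collagens Col5a2 (-1.35) and Col5a1 (-1.26), and 1 rose, the proteoglycan core Srgn (1.51 ± 0.24). Their median log2 fold change was -0.82 against -0.011 over all genes. Of 16 matrix receptors 6 rose, 2 fell and 8 were not called: the leukocyte integrins Itgal (2.86 ± 0.14) and Itgam (1.58 ± 0.15) rose and Itgb3 (-1.83 ± 0.37) fell. Of 9 crosslinking and collagen processing genes 4 rose and 3 fell, with Lox at 1.87 ± 0.25 and the collagen chaperone Serpinh1 at -1.25 ± 0.22. Marker levels of several cell types also differed after tau. The 8 microglial markers summed to 6505 to 7758 CPM against 3392 to 4047 CPM in vehicle, with 4 of 7 tested called higher. The 5 markers of border-associated macrophages, 1 of 2 tested called higher, summed to 117 to 124 CPM against 60.6 to 99.4 CPM in vehicle. The 5 astrocyte markers, 2 of them called lower, summed to 284 to 373 CPM against 531 to 568 CPM in vehicle, and the 5 neuron markers, 3 of them called lower, to 32.4 to 45.1 CPM against 70.9 to 88.9 CPM. The oligodendrocyte markers (178 to 216 CPM against 152 to 224 CPM) and the endothelial and pericyte markers (3.20 to 7.94 CPM against 1.09 to 4.27 CPM) overlapped. Whether matrix RNA of such cells contributed to the falls was not tested.

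In PS19 microglia 2 of 69 list genes rose and none fell by edgeR's test, and 12 had an unadjusted p under 0.05. The 2 that rose were the receptors Itgax, a marker of activated microglia, and Sdc3, a cell surface proteoglycan. Itgax was at 180 ± 34.1 (SD) against 42.6 ± 3.47 (SD) CPM, with a log2 fold change of 2.08 ± 0.19 and an adjusted p of 0.000822. That of Sdc3 was 1.59 ± 0.23 (adjusted p = 0.023). Without PS19 replicate 1 again only these 2 were called. In IkbkbCA 11 rose and 8 fell of 68, where 7.31% of all genes were higher and 7.16% lower, and 11 and 9 of 77 without replicate 3. Mmp2, the gelatinase that Mmp14 activates, rose from 1.70 ± 1.02 (SD) to 12.0 ± 4.37 (SD) CPM (log2 2.79 ± 0.38, adjusted p = 0.000453). Mmp27, in the cluster with Mmp12 and Mmp13, fell (-1.66 ± 0.51). Adam17 (0.76 ± 0.082) and Adam10 (0.28 ± 0.079) rose, as did Serpine2 (0.83 ± 0.23) and the urokinase gene Plau (0.57 ± 0.17). Of 13 other matrix genes 3 fell: Lamb2 (-1.59 ± 0.18), Spp1 (-0.53 ± 0.13) and Srgn (-0.49 ± 0.094). The calls of Plau and Spp1 were lost without replicate 3. The 16 receptors split evenly among those called, with Sdc3 (1.64 ± 0.15) and Itgal (1.63 ± 0.15) up and Itgb3 (-1.78 ± 0.31) down. Tgm2, a transglutaminase that crosslinks fibronectin, rose (1.63 ± 0.16).

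In Ikbkb-/- 6 rose and 12 fell of 66 list genes, where 7.64% of all genes were higher and 6.96% lower, and 4 and 9 of 68 without Ikbkb+/+ replicate 1. No other matrix metalloprotease or inhibitor of the 6 and 2 tested was called by edgeR, and 1 of each had an unadjusted p under 0.05. Plau (-0.39 ± 0.091) and its receptor Plaur (-0.85 ± 0.19) fell and Serpine2 rose (1.21 ± 0.13, from 298 to 689 CPM). Adam17 (-0.30 ± 0.088) and Adamts1 (-0.95 ± 0.24) fell and Adamts4 rose (1.22 ± 0.26). The 5 oligodendrocyte markers, 4 of them called higher, summed to 491 to 557 CPM in Ikbkb-/- and 257 to 368 CPM in Ikbkb+/+. The part of these markers in the list genes' differences was not tested. Of 13 other matrix genes 5 fell and 1, Spp1, named after its value was seen, rose. The largest fall was that of Sparc (-2.24 ± 0.43), which varied widely in the controls (597 ± 406 CPM, SD). The calls of Adam17 and Spp1 were lost without Ikbkb+/+ replicate 1. Itgax fell (-3.63 ± 0.70), to 1.66 CPM from 19.9 ± 16.1 (SD) CPM in the controls, with overlapping groups. Sdc3 (2.04 ± 0.087) and Itgal (0.88 ± 0.18) rose. Cx3cr1, of which the CreERT2 allele replaces a copy, was at 1130 to 1304 CPM in IkbkbCA and 965 to 1168 CPM in Ikbkb-/-, against 1526 to 1971 and 1818 to 2917 CPM in their controls.

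**Figure D4:**
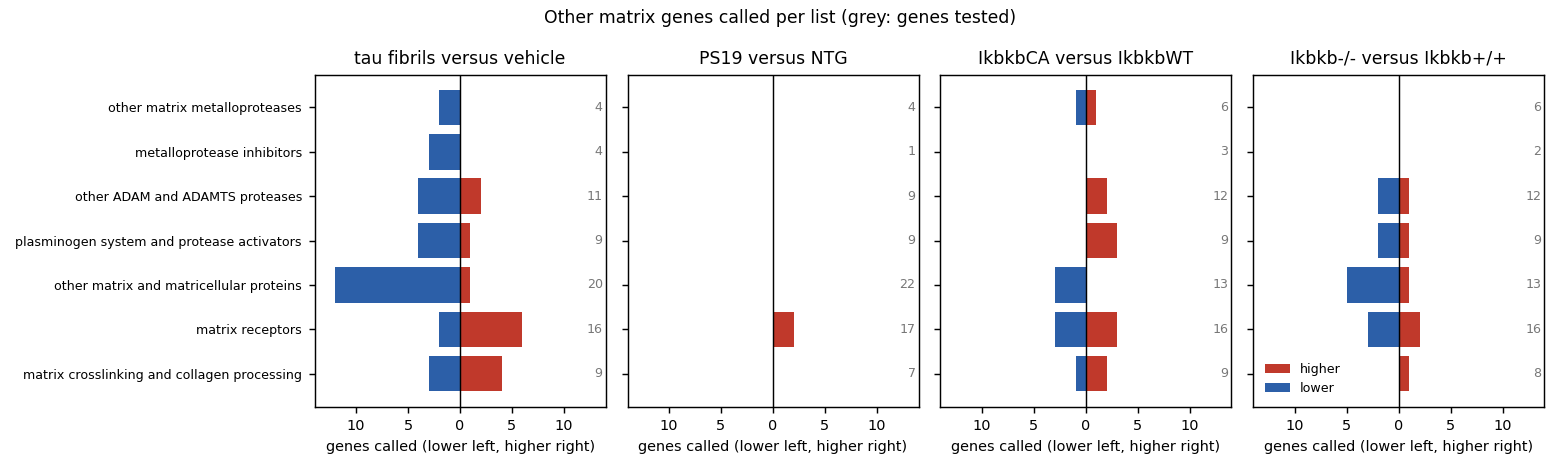
Number of genes called higher (red, right) and lower (blue, left) at an FDR of 0.05 in each of 7 lists of other matrix genes, by comparison, with the number tested in grey. In tau-treated microglia 12 of 20 other matrix genes were lower, and in PS19 microglia 2 receptors were higher.

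As a description over the 34 libraries, which share preparation and scaling, the genes with the most similar log2 CPM were sought among 13494 genes. For Mmp14 they were Tnip3 (Pearson's r = 0.949) and Fpr2 (0.871), for Tgfbi Rassf4 (0.9503) and Cyba (0.936), and for Adam8 Cd44 (0.972) and Lgals3 (0.965). They were Prnp (0.938) and Ppme1 (0.928) for Mmp12, Ywhag (0.898) and Mtpn (0.896) for Mmp13, and Gbe1 (0.831) and Hp (0.797) for Mmp9. For Timp2 and Fn1 they were Pld3 (0.890) and Rab34 (0.773), and Ldha (0.826) and Nsd2 (0.825). Among the members themselves r ran from -0.11 for Mmp14 and Timp2 to 0.79 for Mmp13 and Adam8, with 0.73 for Mmp14 and Tgfbi.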

How the data were processed

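Whole-number counts per Ensembl gene were deposited by the authors without normalization, with 5 summary lines, which were left out. Of reads in genes, outside genes or ambiguous, 12.4% to 38.3% per library lay outside genes and 0.409% to 0.708% were ambiguous. Per the labels and methods, reads were mapped to GRCm38. The methods name the BlueBee genomics platform for mapping the microglia libraries. They name STAR for the cortex samples, followed by RSEM for the count table. The submitters' processing notes name STAR, RSEM, edgeR and limma, although whole counts and these 5 lines are not what RSEM writes. The 24 cortex samples were not analysed here. Symbols came from GENCODE M21 (47224 of 47643 identifiers).

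Each comparison was fitted on its own libraries in R 4.3.3 with edgeR 4.0.16: TMM, filterByExpr (minimum count 10, total 15), quasi-likelihood test, Benjamini-Hochberg adjustment over all genes tested, calls at an FDR of 0.05. SE is the log2 fold change over the root of F. After ±, log2 values have the SE and CPM values the SD. Differences of effects were fitted over 4 groups. Alternatives used DESeq2 1.42.0 and limma 3.58.1, other scalings, filters and covariates, and each library left out. The script was tested on simulated data. The members and lists were chosen with earlier results of these data known. Named genes were the members, Ikbkb, and per list and comparison up to 3 called genes with the largest fold and a mean of at least 10 counts in the higher group, markers that moved with a result, and for each member the 2 genes with the highest Pearson correlation of log2 CPM (prior count 2) among genes with 10 counts in 4 libraries. Among 56 pairs of libraries of a group, 0 were identical. All intervals on counts cover counting error only. The values of 1 gene that met the rule are not reported here.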

Additional observations from a re-analysis of the deposited data

Results flagged for a closer look

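In 64 sets of libraries, 8 members in 8 groups, 8 held a library far from the rest, where chance alone gives about 1 in 20. IkbkbCA replicate 3 accounted for 4 of them: Mmp9 at 1352 CPM against 14.3 to 23.03 in the other 4 libraries, Mmp12 at 162 CPM against 10.9 to 19.0, Mmp14 at 132 CPM against 50.1 to 57.5, and Tgfbi at 179 CPM against 109 to 115. IkbkbWT replicate 3 had 24.6 CPM of Mmp9 against 6.11 to 11.4 CPM. Tau fibrils replicate 4 had 198 CPM of Mmp14 against 142 to 149 CPM and 1140 CPM of Adam8 against 752 to 815 CPM. Tau fibrils replicate 3 had 24.6 CPM of Mmp9 against 25.6 to 25.8 CPM, a small gap between libraries that hardly varied.

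Effects that differed between changes by a test of the difference were, on the log2 scale, Mmp14 (3.64) and Tgfbi (1.53) between IkbkbCA and Ikbkb-/-, Tgfbi (2.52) between tau fibrils and IkbkbCA, and Mmp9 (4.24), Mmp12 (-2.59), Mmp14 (2.42), Timp2 (-0.73) and Tgfbi (3.43) between tau fibrils and PS19.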

How the results depend on the processing

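Of 86 alternative fits, 34 left out 1 library each. Of the members' values under them, 599 kept direction and side of the threshold, 26 lost a call, 12 gained one and 22 changed sign. No paired analysis was possible because the labels number no replicates, and the numbers used here follow the order of deposit. With tau fibrils 5 to 6 members and 2517 to 3038 genes were called when a library was left out, Fn1 being lost without vehicle replicate 1, and Timp2 was at -0.092 with scaling to total counts and at -0.014 (without vehicle replicate 4) to 0.096 without a library. In PS19 DESeq2 called 2 members and 98 genes, limma-voom 4 genes, the fit without a filter 1 member and 166 genes and age as a covariate 0 genes, against 8 as reported. Leaving out a library gave 4 (without NTG replicate 1 or 2) to 54 genes (without PS19 replicate 2) and 0 members. There the log2 fold change of Mmp9 was 0.0063 with RLE scaling, 0.026 with total counts, 0.0032 with DESeq2, 0.047 without a filter, 0.34 with age and -0.49 (without PS19 replicate 3) to 0.18 without a library, and Adam8 was at -0.31 (without PS19 replicate 1) to 0.95. In IkbkbCA limma-voom called 2 members, leaving out a library gave 2 (any IkbkbWT library) to 4 members and 1253 to 1693 genes, and the 3 sets as a covariate gave 2846 genes against 1692. Mmp12 was at -0.32 with limma-voom, -0.19 with the sets and -1.08 (without IkbkbCA replicate 3) to 0.78 without a library. Mmp14 and Tgfbi were called in all 19 alternatives. In Ikbkb-/- leaving out a library gave 4 to 4 members and 1205 to 1583 genes, and the fits of 18 libraries called 0 members and 875 genes, or 775 with Ddx3y, against 1641. For the difference of IkbkbCA and Ikbkb-/- the fit without a filter called 4 members, and without IkbkbCA replicate 3 Mmp12 was at -0.079 and Mmp13 at -0.024. For that of tau and IkbkbCA DESeq2 called 2 members, the fit without a filter 3 and that without IkbkbCA replicate 3 called 2, with Mmp9 at 1.91 by limma-voom and 3.59 without that library. For that of tau and PS19 Adam8 was at -0.057 with total counts and Mmp13 at 0.55 with limma-voom. Except where fewer libraries entered, the cause was not tested. The covariates for the sets and Ddx3y and the leave-outs in the differences were chosen after seeing the data. Depth limits Mmp13 in adult cells and Mmp9 in vehicle cells, with at most 12 and 6 counts per library.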
